A study of Mus musculus with 20 samples.

Results

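The 6 libraries described here come from 3 mice that were given the control siRNA and whose livers were taken at day 9. Each animal gave 1 library of ribosome footprints and 1 library of RNA, and the comparison is footprints against RNA for every gene, paired by animal. The full series holds 20 libraries from 10 mice, so these are 6 of 20, chosen by siRNA, day and animal number alone (ES34-1, ES34-2 and ES34-3) with no measured value used. Set beside them below are livers given Eif3m siRNA and taken at day 9 (3 mice, 6 libraries), and livers given the control siRNA and taken at day 13 (2 mice, 4 libraries). All animals were FVB/N mice aged 6 to 8 weeks. They received siRNA packed in lipid nanoparticles at 0.5 mg/kg through the tail vein, with 1 injection in 5 days. The control siRNA was a scrambled luciferase sequence, so the control livers also carry nanoparticles, an siRNA and the handling, and no untouched liver is used here. Footprint libraries were made with Epicenter ART-seq on both days, while RNA libraries were made with KAPA mRNA capture at day 9 and with NeoPrep at day 13.

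A ribosome protects the stretch of mRNA it sits on from nuclease, and that protected stretch is sequenced as a footprint. The more copies of a message there are, and the more ribosomes each holds, the more footprints it gives. The footprint to RNA ratio of a gene is thus a rough measure of how heavily its message is loaded beside other messages. Counts here are per gene, and no lengths of coding or untranslated parts were used. The ratio is therefore not corrected for how much of a message is translated. In hepatocytes most footprints lie on messages for plasma proteins and metabolic enzymes. Messages can be held back from ribosomes in several known ways: a run of pyrimidines at the cap makes the mRNAs of the translation machinery depend on mTOR, short upstream reading frames divert scanning ribosomes, and iron regulatory proteins bind a loop in the leader of the ferritin mRNAs. A spliced, polyadenylated RNA without a reading frame should carry few ribosomes, and a message without a poly(A) tail is lost when RNA is captured through that tail.

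The footprint libraries held 7.04, 7.69 and 7.37 Mcounts (mega-counts) in animals 1, 2 and 3, against 27.4, 37.8 and 31.7 Mcounts in their RNA libraries. Defining hepatocyte markers were present in both kinds of library: the 10 listed markers took 18.4% ± 1.32 of footprints and 16.7% ± 0.228 of RNA counts (SD, n = 3 animals). Of 38784 gene symbols, 13478 had enough counts to be tested. Enough counts in either kind of library sufficed, so a gene nearly absent from the other kind could be tested. The ratio is given as log2 of footprints over RNA, scaled so that 0 is the typical gene, and it says nothing of absolute translation rates. A gene was called high or low where the ratio was at least 2-fold from 0 with an adjusted p below 0.05 in edgeR's paired quasi-likelihood test. By that rule 1719 genes (12.8% of those tested) were high, 2734 genes (20.3%) were low, and 9025 genes were neither. These 2 shares are the background for every count of list members below. With the p alone, 67.8% of genes (9138) passed, of which 4685 were within 2-fold of the typical gene, so the size of a ratio and not only its p was used throughout. The median SD of a gene's ratio over animals was 0.18 on the log2 scale among genes with a mean of at least 5 CPM (a gene's counts scaled to library size, per mega-count). Footprint and RNA levels rose together across genes (Pearson r = 0.883 across genes, which are not replicates). With library totals in place of the trimmed-mean scaling, the median gene moved by -0.22 on the log2 scale, and 1224 genes were high and 3427 low. The high share of the calls was then 26.3%, against 38.6% with the trimmed-mean scaling, so the side of 0 of a group near 0 rests on the scaling.

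**Figure D1:**
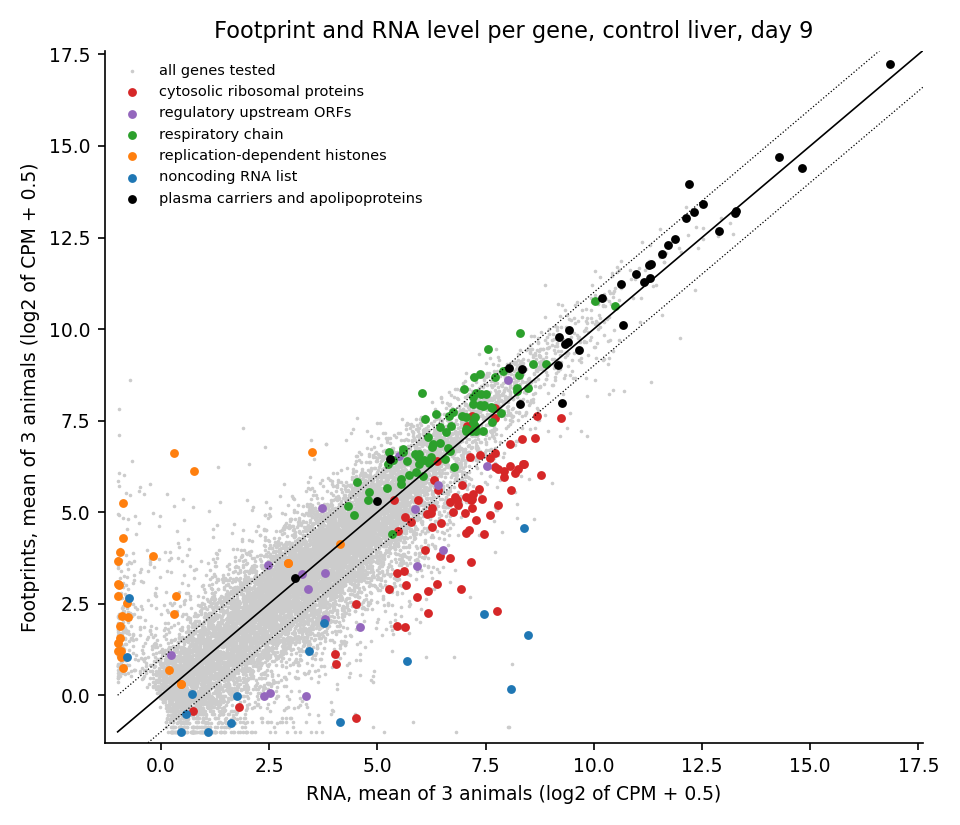
Mean footprint level (y axis) against mean RNA level (x axis) of every gene tested in the 3 control livers at day 9, both as log2 of CPM + 0.5. Grey points are all 13478 genes, colours mark 6 sets of listed genes, the solid line is a ratio of 1 and the dotted lines are 2-fold either side. Most ribosomal proteins lie below the line, most histones lie at the left edge above it, and most plasma proteins lie along it toward the top.

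The messages of the translation machinery carried few footprints for their RNA. Of 79 cytosolic ribosomal protein genes tested, 67 were low and 0 were high, with a median log2 ratio of -1.88 and a range of -7.18 to 0.44. Of 21 elongation factors and other messages known to start with a terminal oligopyrimidine (TOP) tract, 10 were low and 0 high, with a median of -0.98. Pyrimidine runs near the start can be seen in the RefSeq start sequences (GRCm38.p6) of several low members. In the 7 printed here the run begins between 6 bases before the annotated start (Rack1) and base 9 of the annotated message (Rps12). Whether any run begins at the cap was not tested. The 7 were picked as examples from those with a run, and capitals mark the longest pyrimidine run within 20 bases of the annotated start:
Rps12: cgccggCCTTTTCCCCTgccgccgccgact
Rpl27a: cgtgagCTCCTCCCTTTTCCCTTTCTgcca
Rps24: ctggggTCCTTCCTTgcgcgttgatatgat
Rps6: gtcgggCCTCTTTTTCgtgacgcctcccag
Rack1: aggccgCTCTTTCTTTTTCTCCacagggtc
Eef1a1: gctccgCCCTCTTCCCgagggtgggggaga
Eif3f: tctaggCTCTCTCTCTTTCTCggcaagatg

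They lie at chr10:23787178-23787207 on the minus strand (Rps12), chr7:109519185-109519214 on the plus strand (Rpl27a), chr14:24490669-24490698 on the plus strand (Rps24), chr4:86857345-86857374 on the minus strand (Rps6), chr11:48800348-48800377 on the plus strand (Rack1), chr9:78481706-78481735 on the minus strand (Eef1a1) and chr7:108934405-108934434 on the plus strand (Eif3f). A run of at least 8 pyrimidines (C or T, with at least 1 C, read on the strand of the gene) lay within 20 bases of the start for 30 of 59 ribosomal protein genes with a start in the table (50.8%), against 19.2% of 9645 protein-coding genes tested and 15.9% of all 32851 annotated starts. Among the 59, the 30 with a run had a median ratio of -2.02 with 80% low, and the 29 without had -1.74 with 82.8% low. In the elongation and TOP list the 5 with a run had a median of -0.56 and the 9 without had -0.98, and in neither list was the share of low genes higher with a run (40% with and 44.4% without in the TOP list). Outside these lists, protein-coding genes with a run had a median of -0.04 and those without a run had 0.00, with 17.7% and 16.6% of genes low, so the step was small there.

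Rps6, the small-subunit protein phosphorylated downstream of mTOR, had 12.2, 10.8 and 15.7 CPM of footprints in the 3 animals, against 106, 101 and 99.1 CPM of RNA, a log2 ratio of -2.99 (SE 0.12, edgeR adjusted p = 4.08e-10). Rack1, a scaffold protein of the small subunit, had 62.6, 60.0 and 91.7 CPM of footprints, against 304, 294 and 309.8 CPM of RNA (log2 ratio -2.10, SE 0.11). Rpl4, a large-subunit protein, had 172, 157 and 237 CPM of footprints, against 612, 591 and 607 CPM of RNA (log2 ratio -1.70, SE 0.10). In each of these the RNA level was nearly the same in the 3 animals, while the footprint level was highest in animal 3. Among the lowest members by the naming rule were Rpl27a at -4.09, Rpl39 at -3.78 and Rpl32 at -3.44 in the large subunit, and Rps2 at -5.61, Rps12 at -4.15 and Rps24 at -3.98 in the small subunit. The lowest of all, Rpl17, is known from only 3 footprint counts in all against 2290 RNA counts, 150-fold lower with an exact 95% interval of 51.3 to 728 that covers counting error only. Rps29, chosen after its values were seen as the highest of the small subunit, was not called: it had 192, 180.4 and 215 CPM of footprints, against 146, 139 and 147 CPM of RNA (log2 ratio 0.44, SE 0.08).

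Eef1a1, the elongation factor that brings aminoacyl-tRNA to the ribosome, had 671, 710.4 and 1216 CPM of footprints, against 3975, 4129 and 4121 CPM of RNA, a log2 ratio of -2.29 (SE 0.16, edgeR adjusted p = 2.01e-05). Eef2, which moves the ribosome along by a codon, had 207, 281 and 454 CPM of footprints, against 1689, 1633 and 1665 CPM of RNA (log2 ratio -2.48, SE 0.24). Tpt1, which encodes translationally controlled tumor protein, stood at -2.50 (SE 0.09), and Pabpc1, the cytoplasmic poly(A)-binding protein, at -2.65 (SE 0.14). Npm1, a nucleolar chaperone of ribosome assembly, was the lowest of the list at -3.11 (SE 0.18). Footprints on these messages were again highest in animal 3, and the 2 levels did not overlap in any of the 5. At the other end of the list Btf3 stood at 0.17 and Nap1l1 at -0.04, neither called. Together the 21 genes took 0.225% ± 0.051 of footprints and 0.935% ± 0.0011 of RNA counts (SD, n = 3), a 4.15-fold difference.

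Some properties of the files bear on the ribosomal protein result. The deposited counts are not always whole: values fall on multiples of 1 over 6, and a count that is not whole is taken here as a mark of reads shared between places, although no source used here gives the rule by which reads were counted. Of the 79 ribosomal protein genes, which have many processed copies in the genome, 59 had a fractional value in at least 4 of the 6 libraries. Only 4 had at most 1 fractional value, and 3 of these were low: Rpl4, Rps3a1 at -1.64 and Rps28 at -1.42. The other was Rps29, at 0.44 and not called, the only one of the 79 whose 6 values were all whole. In the elongation and TOP list 3 genes had 6 whole values, and 3 of them were below 0 and 1 was low (median -0.69). The low one, Eef1g, had 52.7, 51.0 and 71.1 CPM of footprints, against 225, 222 and 232 CPM of RNA (log2 ratio -1.97, SE 0.10, edgeR adjusted p = 1.63e-09). The second property is the RNA kit. At day 9 the large-subunit genes took 0.203%, 0.204% and 0.279% of footprints in the 3 control livers, against 0.771%, 0.728% and 0.737% of RNA counts. At day 13 they took 0.285% and 0.382% of footprints in 2 other control livers, against 0.205% and 0.216% of RNA counts. At day 13 the footprint shares were somewhat higher and the RNA shares were far lower, so the low ratio of ribosomal protein messages at day 9 was not seen at day 13. There the large-subunit genes had a median log2 ratio of 0.69, with 30 of 46 above 0, and the small-subunit genes 0.71, with 20 of 33 above 0. The elongation factors and other TOP messages had a median of 0.11 there, with 12 of 21 above 0, so their low ratio was not seen at day 13 either. The day and the kit used for RNA differ together, and their parts in this cannot be told apart. Across the 12384 genes with a ratio on both days, Pearson r was 0.478 as a description across genes. Of genes called low at day 9, 75.9% (1806 of 2381) were below 0 at day 13, against 53.7% of all genes. Of genes called high at day 9, 68.5% (1064 of 1554) were above 0, against 46.3% of all genes. The day 13 footprint libraries were shallow, at 1.97 and 2.12 Mcounts. For most groups below, the day 13 median is given beside the day 9 result, with no test. The 2 are unlike measures: day 9 ratios are edgeR estimates, and day 13 ratios are means of log2 ratios with 0.5 CPM added. The added 0.5 CPM draws the ratios of scarce genes toward 0. With it, the day 9 median of the host genes of small nucleolar RNAs was -1.38, against -1.89 by edgeR. The day 13 medians also leave out genes with no value on that day.

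**Figure D2:**
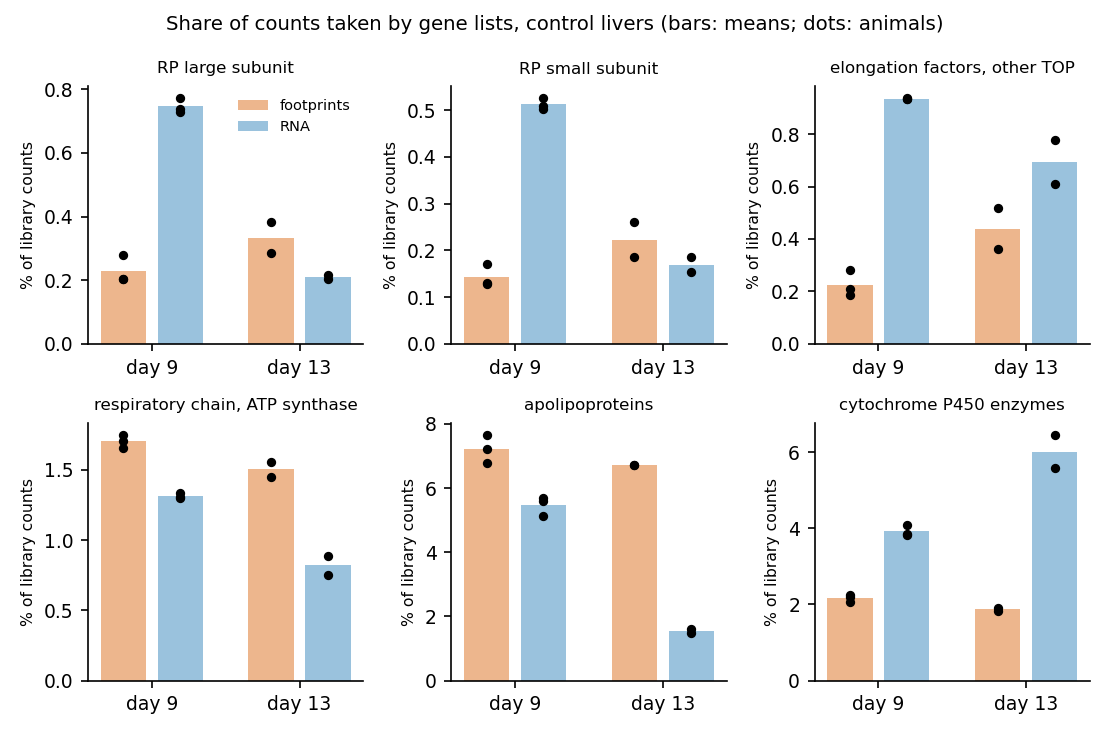
Percent of all counts of a library taken by 6 gene lists, with footprints in orange left of RNA in blue, for control livers at day 9 (3 animals) and at day 13 (2 animals, another RNA kit). Bars are means and dots are animals. The large-subunit share of RNA is 0.771%, 0.728% and 0.737% at day 9 and 0.205% and 0.216% at day 13, while the cytochrome P450 share of footprints is below that of RNA on both days.

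The initiation factors did not share this pattern. Of 13 eIF3 subunits, which together bring the small subunit to the message, 2 were low and 0 high (median -0.10, and 0.02 at day 13). Eif3f had 30.8, 35.4 and 46.1 CPM of footprints, against 95.5, 95.8 and 94.8 CPM of RNA (log2 ratio -1.36, SE 0.11, edgeR adjusted p = 2.16e-07), and Eif3e stood at -1.08 (SE 0.11). Both are counted among the TOP messages above. Eif3m, the gene that the other siRNA of the study targets, had 80.0, 74.1 and 75.3 CPM of footprints in control livers, against 72.7, 71.1 and 70.9 CPM of RNA, a ratio not told apart from that of the typical gene (log2 0.09, SE 0.08, edgeR adjusted p = 0.342). Of 27 other initiation factors 4 were high and 2 low (median -0.01, and -0.34 at day 13). Eif5a, which rescues ribosomes stalled at proline runs, had 397, 395 and 452 CPM of footprints, against 161, 161 and 167 CPM of RNA (log2 ratio 1.34, SE 0.07). Eif2s1, the alpha subunit of eIF2 that stress kinases phosphorylate, stood at 1.33 (SE 0.09) and Eif1b at 1.91 (SE 0.13). Eif4g2, a relative of the scaffold eIF4G that lacks the binding site for the cap-binding protein, had 159.5, 136 and 152 CPM of footprints, against 446, 506 and 520.3 CPM of RNA (log2 ratio -1.72, SE 0.09). Footprint and RNA levels did not overlap for any of these 4 factors.

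Messages known for regulatory upstream reading frames lay on both sides of the typical gene. Of 18 tested, 8 were low (44.4%, against the background of 20.3%) and 4 were high (22.2%, against 12.8%), and the median was -0.73. Atf4, the transcription factor of the integrated stress response and the standard example of this control, had 14.0, 16.03 and 15.4 CPM of footprints, against 101, 78.9 and 92.5 CPM of RNA, a log2 ratio of -2.57 (SE 0.12, edgeR adjusted p = 1.02e-09). Ppp1r15a (GADD34), the phosphatase subunit that ends that response, was the lowest, with 0.611, 0.553 and 0.299 CPM of footprints, against 10.2, 9.99 and 9.10 CPM of RNA (log2 ratio -4.31, SE 0.28). Ddit3 (CHOP), a stress transcription factor, had 0.153, 0.829 and 0.448 CPM of footprints, against 5.31, 4.77 and 4.10 CPM of RNA (log2 ratio -3.26, SE 0.37), and all 6 of its counts were whole. All 3 stress response messages were thus present as RNA in every control liver, with few footprints, and the 2 levels did not overlap. Ppp1r15b, the constitutive partner of Ppp1r15a, was not called (log2 ratio -0.79, SE 0.10).

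Ucp2, a mitochondrial carrier with an inhibitory upstream frame, had 3.05, 3.32 and 3.14 CPM of footprints, against 23.3, 22.8 and 25.4 CPM of RNA (log2 ratio -2.90, SE 0.16). Ifrd1, whose upstream frame is known to destabilise its mRNA, stood at -1.82 (SE 0.18), and Atf5, a second stress transcription factor, at -1.29 (SE 0.08). Slc35a4, whose upstream frame itself encodes a protein, stood at -3.29 (SE 0.38), with 1.22, 0.138 and 0.299 CPM of footprints, against 6.08, 4.94 and 4.80 CPM of RNA. The 4 high members were Cdkn1b at 1.43 (SE 0.11), Chac1 at 1.26 (SE 0.40), Mtr at 1.16 (SE 0.19) and Cebpb at 1.02 (SE 0.11). Cdkn1b encodes the cell cycle inhibitor p27, and Cebpb a liver transcription factor made in several lengths from 1 message. At day 13 the list had a median of -0.77, and 10 of its 16 members with a value were below 0. Atf4 stood at -2.74 there, Ifrd1 at -4.23 and Ppp1r15a at -0.88, whereas Atf5 stood at 3.65 and Ucp2 at 0.05. The counts are per gene, so they do not say whether footprints of a gene lie on its upstream frames or on its main frame.

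Polyamine synthesis is controlled at translation as well. Odc1, its rate-limiting enzyme, had 9.62, 12.02 and 11.6 CPM of footprints, against 50.9, 56.0 and 72.9 CPM of RNA (log2 ratio -2.42, SE 0.12, edgeR adjusted p = 1.99e-09), and stood at -4.13 at day 13. Smox, a polyamine oxidase, was low at -1.14 (SE 0.31) from few counts, and no other of the 11 genes tested was called, including the antizymes Oaz1 at -0.27 and Oaz2 at 0.08.

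Iron genes lay on both sides. Fth1 and Ftl1, which encode the heavy and light ferritin chains and carry an iron-responsive loop in their leaders, were both low. Fth1 had 509, 624 and 447 CPM of footprints, against 1297, 1298 and 1291 CPM of RNA, a log2 ratio of -1.31 (SE 0.08, edgeR adjusted p = 1.55e-08). Ftl1 had 617, 629 and 480.5 CPM of footprints, against 1249.6, 1168 and 1188 CPM of RNA (log2 ratio -1.07, SE 0.08). The RNA of both was steady over animals, and the footprints were lowest in animal 3 for both chains, the animal in which footprints of the TOP messages were highest. Both have near-identical copies: Ftl1 had 6 and Fth1 4 fractional values. At day 13 Fth1 stood at -1.70 and Ftl1 at 0.14. Other genes whose messages carry such a loop behaved otherwise: Slc40a1, the iron exporter ferroportin, stood at 0.21 and was not called, and Epas1, which encodes HIF-2 alpha, was high with 224, 239.6 and 208 CPM of footprints, against 65.0, 92.0 and 83.3 CPM of RNA (log2 ratio 1.49, SE 0.10). Tfrc, the transferrin receptor, whose loops lie in its 3′ end and act on RNA stability, stood at 0.88, not called.

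Hepcidin, the hormone that closes ferroportin, had many footprints for its RNA. Hamp had 2869.9, 3475 and 2813 CPM of footprints, against 1011, 1139.9 and 987 CPM of RNA (log2 ratio 1.54, SE 0.06). Its copy Hamp2 had 2286, 2518 and 2215 CPM of footprints, against 447, 475 and 482 CPM of RNA (log2 ratio 2.32, SE 0.07, edgeR adjusted p = 1.41e-11), and the 2 genes stood at 1.97 and 2.34 at day 13. Hfe2, the hemojuvelin coreceptor that drives hepcidin transcription, was low with 13.0, 13.1 and 9.11 CPM of footprints, against 56.7, 39.7 and 39.8 CPM of RNA (log2 ratio -1.94, SE 0.13, all values whole). Hmox1, the haem-degrading enzyme, was high at 1.36 (SE 0.10). In all, 4 of 17 iron genes were high and 3 low, with a median of 0.21.

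Of 18 selenoproteins and their synthesis enzymes, in which a UGA codon is read as selenocysteine, 3 were low and 1 high (median -0.39, and 0.21 at day 13). Sepp1, the plasma selenium carrier made by hepatocytes, had 2032, 2258 and 2169 CPM of footprints, against 4783, 5455 and 5251 CPM of RNA (log2 ratio -1.26, SE 0.06, edgeR adjusted p = 6.58e-10). It stood at -1.25 at day 13. Sephs2, which makes the selenium donor, stood at -1.17 (SE 0.07) and Sepw1 at -1.01 (SE 0.12), while Ept1 was high at 1.11 (SE 0.12).

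**Figure D3:**
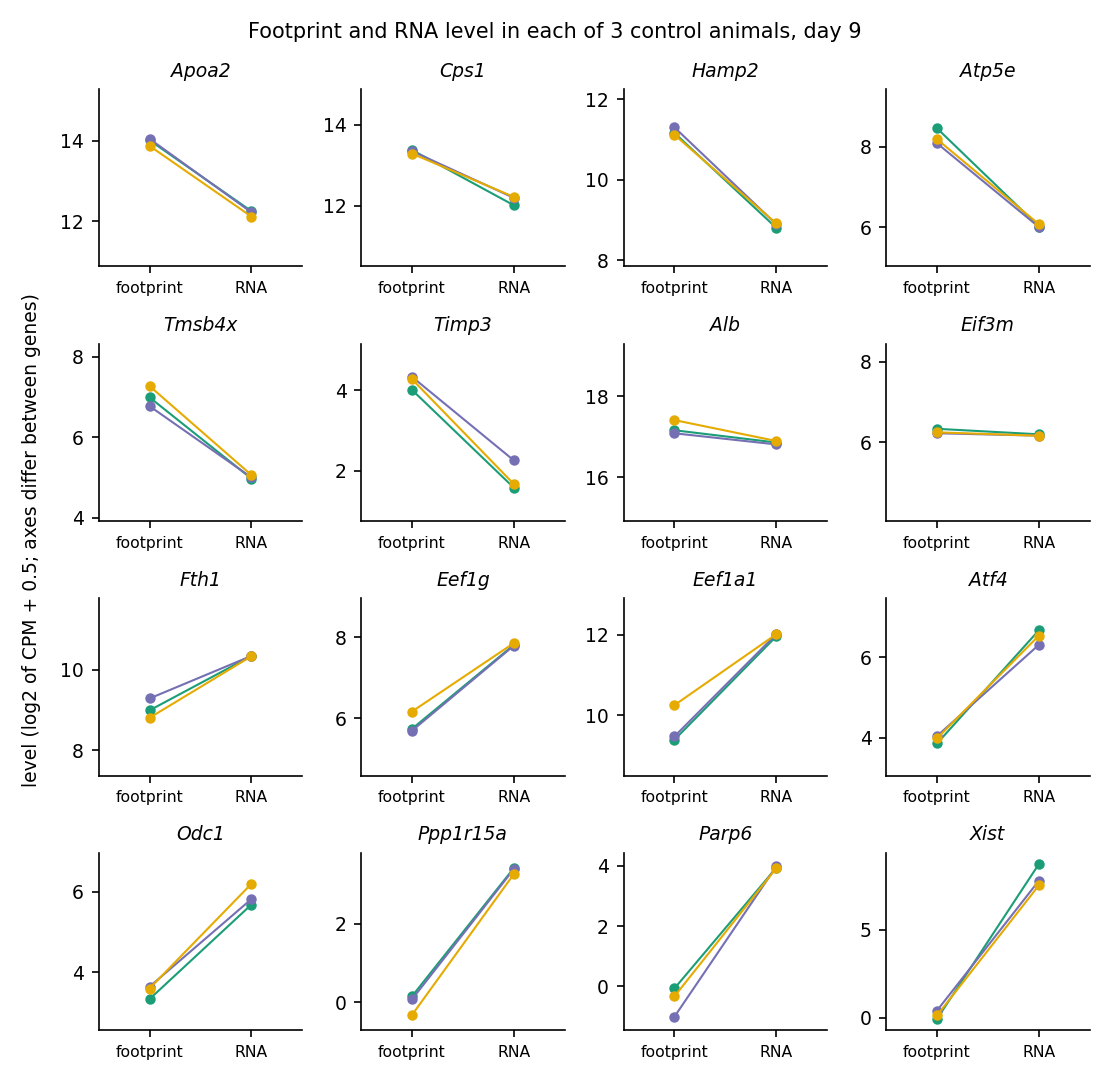
Footprint level (left) and RNA level (right) of 16 genes in each of the 3 control animals at day 9, as log2 of CPM + 0.5, with 1 line per animal (green animal 1, violet animal 2, yellow animal 3). Lines that fall to the right mark messages with many footprints for their RNA, such as Apoa2, and lines that rise mark messages with few, such as Atf4; axes differ between genes.

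The plasma proteins that fill the liver's footprints had ratios close to that of the typical gene. Alb alone took 13.7%, 13.1% and 15.9% of footprints, against 12.9%, 12.3% and 13.0% of RNA counts (log2 ratio 0.37, SE 0.05), and the 10 genes with the most footprints took 25.6% ± 1.26 of footprints and 23.2% ± 0.174 of RNA counts (SD, n = 3). Of 17 carriers of the albumin family and their like, 0 were high and 0 low, with ratios from -0.57 to 0.89 and a median of 0.26 (0.37 at day 13). Trf, the iron carrier transferrin, was on the lower side with 18622, 20585 and 25379 CPM of footprints, against 26639, 28999.5 and 30916 CPM of RNA (log2 ratio -0.43, SE 0.06). Gc, the vitamin D carrier, stood at -0.06, Ahsg (fetuin-A) at -0.10 and Ttr, the thyroxine carrier transthyretin, at 0.88, and none of these was called.

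Among 17 apolipoproteins and lipoprotein factors, 2 were high and 1 low, and the list took 7.22% ± 0.434 of footprints and 5.47% ± 0.307 of RNA counts. Apoa2, the second protein of HDL, had 16456, 16882 and 14943 CPM of footprints, against 4865, 4765 and 4432 CPM of RNA, a log2 ratio of 1.78 (SE 0.05, edgeR adjusted p = 1.92e-11). It was the only called gene besides Cps1 among the 10 with the most footprints. Apoc2, the activator of lipoprotein lipase, stood at 1.16 (SE 0.09). Apob, the large protein of VLDL, had 11588, 11162 and 10286 CPM of footprints, against 4989.9, 6889.8 and 5909 CPM of RNA (log2 ratio 0.90, SE 0.08), and Apoe stood at 0.43 (SE 0.06), neither called. Lcat, the enzyme that esterifies cholesterol in HDL, was low with 275, 229 and 259 CPM of footprints, against 625, 611 and 604 CPM of RNA (log2 ratio -1.28, SE 0.07). The median of the list was 0.55 at day 9 and 1.73 at day 13, where its share of RNA counts was only 1.48% and 1.62%.

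Coagulation and complement genes were rarely called: 2 of 41 were high and 1 low (median 0.20, and 0.01 at day 13). Hc, complement factor C5, had 18.6, 17.3 and 25.1 CPM of footprints, against 194, 139.8 and 153 CPM of RNA (log2 ratio -2.99, SE 0.13, edgeR adjusted p = 5.70e-10), and stood at -4.68 at day 13. Kng2, a kininogen, was high at 1.25 (SE 0.06), and Mbl1, a mannose-binding lectin, at 1.16 (SE 0.07). Among 27 acute phase proteins and protease inhibitors 4 were high and 4 low. The median was 0.30 at day 9, with 18 of 27 above 0, and -0.29 at day 13, with 18 of 27 below 0. The extremes are genes with near-identical neighbours: Serpina1c at -3.25, Serpina1a at -3.04 and Serpina1b at -2.78, all copies of alpha-1-antitrypsin, and A2m at 7.35, which is taken up below.

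Detoxifying cytochrome P450 enzymes lay mostly below the typical gene. Of 67 tested, 55 were below 0, 13 were low and 2 high (median -0.50, and -1.37 at day 13). They took 2.26%, 2.21% and 2.08% of footprints, against 3.85%, 4.08% and 3.81% of RNA counts, a 1.80-fold lower share of footprints. At day 13 the shares were 1.92% and 1.83% of footprints, against 5.58% and 6.45% of RNA counts, so the lower share of footprints was seen with both RNA kits. The share of low members, 19.4%, was near the background of 20.3%: the shift was a small one over most members. Cyp3a11, a main drug-metabolising enzyme, had 1319.8, 1441 and 1274 CPM of footprints, against 2819, 3447 and 2948 CPM of RNA (log2 ratio -1.19, SE 0.06). Cyp2e1, the ethanol-metabolising form, stood at -0.62 (SE 0.05) and was not called, Cyp2d10 at -1.75 (SE 0.08), Cyp2c39 at -1.42 (SE 0.09) and Cyp3a41a at -2.11 (SE 0.08). High members were Cyp2c55 at 3.77, which had fractional values in all 6 libraries, and Cyp26b1, a retinoic acid hydroxylase, at 1.39 (SE 0.21). Summed over the listed members, the log2 ratio was -0.63 ± 0.08 (SD, n = 3). This sum does not account for reads shared with genes outside the list or for reads left uncounted.

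Membrane transporters of the hepatocyte had 5 of 34 low and 2 high (median -0.20, and -0.37 at day 13). Slc22a30, of the organic anion transporter family, had 22.3, 19.6 and 20.9 CPM of footprints, against 101, 87.6 and 89.1 CPM of RNA (log2 ratio -2.14, SE 0.10). Abca1, which exports cholesterol to HDL, was high with 301, 322 and 303 CPM of footprints, against 73.7, 125 and 104 CPM of RNA (log2 ratio 1.64, SE 0.11).

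The medians of the lists for mitochondria and for energy metabolism were above 0, while their shares of high members lay on both sides of the background. Of 78 nuclear genes of the respiratory chain and ATP synthase, 68 were above 0, 14 were high and 0 low (17.9% high, against 12.8%), with a median of 0.53 (1.53 at day 13, 64 of 78 above 0). They took 1.75%, 1.71% and 1.66% of footprints, against 1.34%, 1.30% and 1.30% of RNA counts. Of the 12 members with whole counts throughout, 5 were high and 0 low. Atp5e, the epsilon subunit of ATP synthase, had 351, 271 and 291 CPM of footprints, against 64.3, 63.8 and 67.0 CPM of RNA (log2 ratio 2.22, SE 0.09, edgeR adjusted p = 3.30e-10). Ndufa4, a respiratory chain subunit, had 807, 726 and 583 CPM of footprints, against 187, 193 and 182 CPM of RNA (log2 ratio 1.90, SE 0.08). Atp5g3 stood at 1.605 (SE 0.07) and Cox7b at 1.43 (SE 0.09), and in these 4 the footprint level was highest in animal 1. Mitochondrial ribosomal proteins, unlike the cytosolic ones, were mostly near or above 0: 9 of 77 were high (11.7%, against 12.8%) and 2 low, with a median of 0.22 (1.36 at day 13). With library totals the median gene moved by -0.22, about as far as this median lies from 0. Mrpl34 was the highest with 37.7, 39.8 and 43.4 CPM of footprints, against 7.05, 8.21 and 8.49 CPM of RNA (log2 ratio 2.35, SE 0.11), and Mrpl42 the lowest at -1.71 (SE 0.12).

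Glucose output and the urea cycle had 5 of 31 high (16.1%, against 12.8%) and 0 low (median 0.48, and 0.59 at day 13). Cps1, which starts the urea cycle, had 10643, 10453 and 10012 CPM of footprints, against 4115, 4674 and 4749.8 CPM of RNA (log2 ratio 1.20, SE 0.06, edgeR adjusted p = 2.84e-09). Pck1, the enzyme that commits carbon to glucose, varied widely between animals, with 1598, 3799 and 2832 CPM of footprints, against 702, 1450.2 and 1268 CPM of RNA. Its ratio per animal moved much less, at 1.19, 1.39 and 1.16 (log2, SE of the fit 0.06 around 1.25), so both levels moved together. Fatty acid and cholesterol synthesis had 9 of 40 high (22.5%) and 2 low (median 0.32, and 0.41 at day 13). Scd1, the stearoyl-CoA desaturase, had 1775, 915 and 1181 CPM of footprints, against 504, 385 and 514 CPM of RNA (log2 ratio 1.42, SE 0.10). Elovl6, which lengthens fatty acids, stood at 2.15 (SE 0.13), and Agpat2, an enzyme of glycerolipid synthesis, at -1.46 (SE 0.10). Fatty acid oxidation had 2 of 32 high (6.25%) and 0 low, with Pdk4, a kinase that restrains pyruvate oxidation, at 1.20 (SE 0.29).

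Other housekeeping groups were close to the typical gene or a little above it. Of 40 genes of folding and translocation in the endoplasmic reticulum 6 were high and 2 low (median 0.52, and -0.04 at day 13), with Ssr3, a subunit of the translocon-associated complex, at 1.55 (SE 0.09) and Spcs3, of the signal peptidase, at 1.55 (SE 0.13). Of 36 proteasome subunits 1 was high, Psmd11 at 1.23 (SE 0.08), and 0 were low (median 0.43). Of 22 aminoacyl-tRNA synthetases and partners 1 was high, Aimp2 at 1.03 (SE 0.13), and 0 were low (median 0.23). Of 23 ubiquitin and chaperone genes 3 were high and 0 low (median 0.11), with Hspa1b, an inducible heat shock protein, at 1.94 (SE 0.19) and its near copy Hspa1a at 1.86 (SE 0.19). Of 22 actin and tubulin genes 5 were high and 0 low (median 0.58, and 1.90 at day 13). Tmsb4x, which holds actin monomers, had 127, 109 and 154 CPM of footprints, against 31.0, 31.6 and 33.0 CPM of RNA (log2 ratio 2.01, SE 0.10), and Pfn1, a second monomer-binding protein, stood at 1.54 (SE 0.08).

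**Figure D4:**
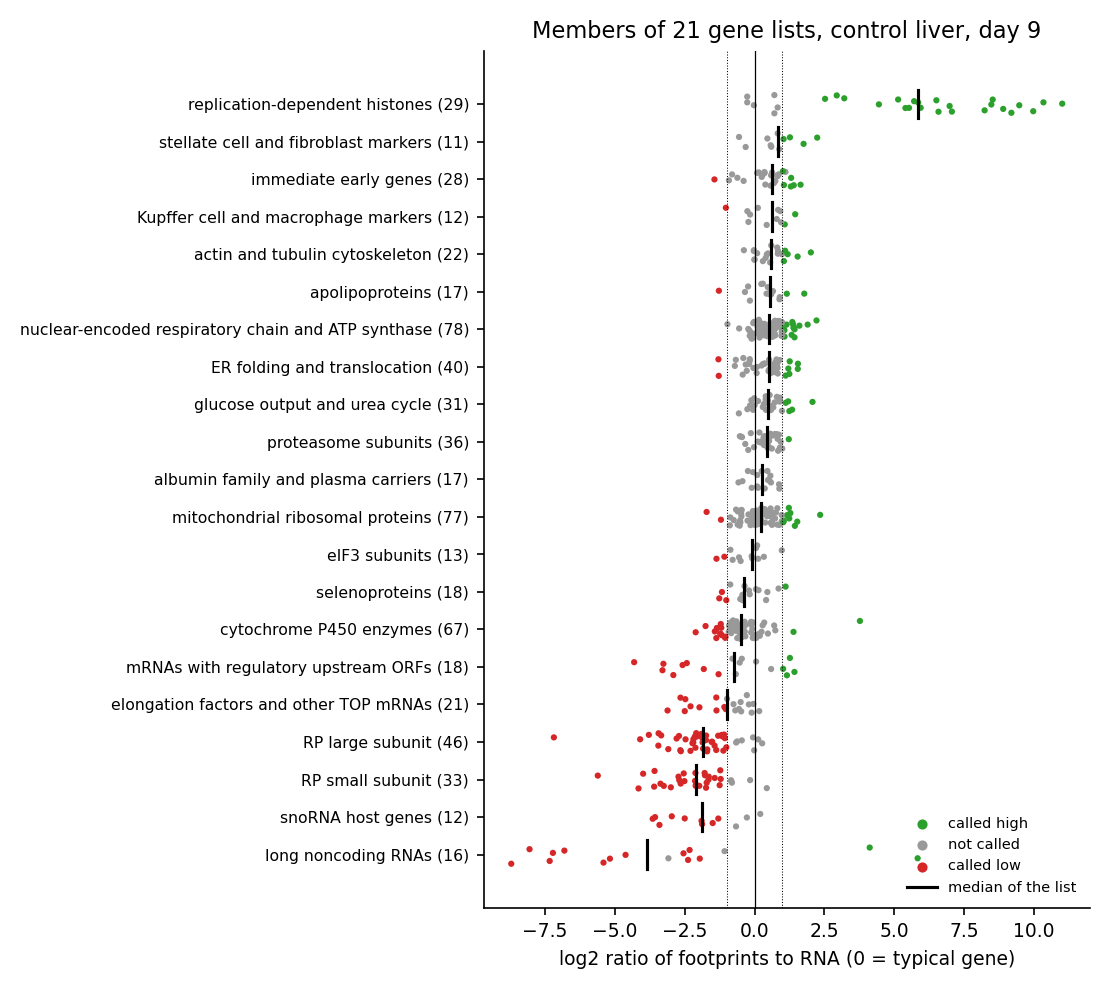
Log2 ratio of footprints to RNA (x axis, 0 is the typical gene) for the tested members of 21 gene lists in control liver at day 9, with the number tested in brackets. Each point is a gene, coloured by whether it was called high, low or neither, black bars are list medians and dotted lines mark 2-fold; medians run from 5.85 for histones to -3.85 for noncoding RNAs.

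Regulators were spread to both sides. Of 34 liver transcription factors and nuclear receptors 7 were high and 5 low, with a median of 0.07 (1.54 at day 13). Ppara, the fatty acid receptor of the fasting response, had 269, 289 and 218 CPM of footprints, against 76.6, 81.3 and 71.3 CPM of RNA (log2 ratio 1.75, SE 0.08, edgeR adjusted p = 9.26e-10). On the low side Nr1h2, the oxysterol receptor LXR beta, had 10.2, 9.39 and 7.91 CPM of footprints, against 39.5, 33.6 and 31.2 CPM of RNA (log2 ratio -1.92, SE 0.12), and Thra, a thyroid hormone receptor, stood at -1.75 (SE 0.18). Nr1h2 and Thra stood at 1.31 and 0.66 at day 13, on the other side of 0. Of 20 clock genes 2 were high and 3 low (median -0.09): Per3 had 11.6, 15.1 and 11.5 CPM of footprints, against 34.9, 31.5 and 30.8 CPM of RNA (log2 ratio -1.35, SE 0.13), Arntl stood at -1.26 (SE 0.41) from about 1 CPM, and Tef, an output factor of the clock, at 1.17 (SE 0.08). Of 28 immediate early genes 6 were high and 1 low (21.4% high, median 0.61, and 2.88 at day 13). Zfp36l1, an RNA-binding protein that hastens mRNA decay, stood at 1.65 (SE 0.08) and Mcl1, a short-lived survival factor, at 1.31 (SE 0.09). Gadd45g was high at 1.40 (SE 0.26), and both of its levels were highest in animal 3: 1.53, 2.49 and 8.06 CPM of footprints, against 0.772, 0.791 and 2.98 CPM of RNA.

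Markers of stellate, sinusoidal endothelial and Kupffer cells, which make up a small part of these bulk samples, were mostly above 0. In bulk tissue fewer cells of a type and less RNA per cell cannot be told apart, but a ratio within a gene does not depend on the number of cells as long as both libraries saw the same cells. Of 11 stellate cell and fibroblast markers 4 were high and 0 low (median 0.83, and 1.75 at day 13), led by Lrat, which stores retinol as esters, with 13.0, 16.6 and 24.6 CPM of footprints, against 2.69, 4.00 and 4.66 CPM of RNA (log2 ratio 2.24, SE 0.15). Of 10 sinusoidal endothelial markers 4 were high and 0 low (median 0.58, and 0.95 at day 13), among them Kdr, the VEGF receptor, with 188, 166 and 164 CPM of footprints, against 42.8, 58.4 and 50.8 CPM of RNA (log2 ratio 1.77, SE 0.11), and Stab2, a scavenger receptor, at 1.58 (SE 0.09). Of 12 Kupffer cell markers 2 were high, Cd5l at 1.45 (SE 0.08) and C1qb at 1.08 (SE 0.10), and 1 was low, Marco at -1.03 (SE 0.15). The 3 lists took 0.0733% ± 0.0035, 0.0603% ± 0.0029 and 0.0687% ± 0.0056 of footprints, against 0.0420% ± 0.0042, 0.0356% ± 0.0020 and 0.0491% ± 0.0040 of RNA counts. Erythroid genes differed: 5 of 7 were low and 0 high (median -1.80, and -0.66 at day 13). The lowest were the beta globin copies Hbb-bs, Hbb-bt, Hbb-b1 and Hbb-b2, with 5, 5, 6 and 5 fractional values. None of the 7 had whole counts throughout, and the part of shared reads was not tested. Hbb-bs, a beta globin, had 10.1, 11.6 and 10.6 CPM of footprints, against 75.4, 102 and 94.3 CPM of RNA (log2 ratio -3.07, SE 0.11). Of 6 lymphocyte and neutrophil markers, all under a mean of 5 CPM, 1 was high and 0 low. Their median was -0.19, and -1.01 at day 13 over the 4 with a value. Bile duct markers were too few and scarce to describe as a group, and Krt19 RNA was higher in animal 2, at 3.81 CPM, than in animals 1 and 3, at 0.940 and 0.972 CPM.

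Most long noncoding RNAs carried few footprints for their RNA. Of 518 long noncoding RNAs tested by their annotation, 314 (60.6%) were low and 31 high, with a median of -1.51, against 17.2% low and 12% high among 11959 protein-coding genes. Pseudogenes did not share this: of 358 tested, 107 (29.9%) were high and 111 (31.0%) low, with a median of -0.03. Xist, the RNA that coats the inactive X chromosome, had 0.458, 0.829 and 0.597 CPM of footprints, against 417, 217 and 181 CPM of RNA (log2 ratio -8.70, SE 0.18, edgeR adjusted p = 7.73e-13). Tug1 had 0.458, 1.80 and 1.94 CPM of footprints, against 51.3, 49.1 and 53.0 CPM of RNA (log2 ratio -5.17, SE 0.22). Neat1, the scaffold of paraspeckles, had 2.59, 3.18 and 2.09 CPM of footprints, against 852, 116 and 109.7 CPM of RNA (log2 ratio -6.80, SE 0.64). RNA of Xist, Neat1 and Malat1 was highest in animal 1, while their footprints were alike in the 3 animals. Malat1, with the widest spread of RNA, was not called: it had 24.9, 21.3 and 22.8 CPM of footprints, against 828, 114 and 67.7 CPM of RNA (log2 ratio -3.08, SE 1.06, edgeR adjusted p = 0.120). Of the listed noncoding RNAs 12 of 16 were low and 2 high. The median was -3.85, or -2.84 with the 2 genes at 0 footprint counts set to their bound, and -2.96 at day 13. Rian was at least 6.03-fold lower in footprints and Meg3 at least 10.3-fold lower, with the floor of 3 counts over the 3 libraries. Firre had 2 footprint counts, 165-fold lower than RNA with an exact 95% interval of 45.5 to 1362 for counting error. The 2 high members, Rmrp at 5.83 and Rpph1 at 4.12, are the RNA parts of the RNases MRP and P, structured RNAs without poly(A) tails.

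Host genes of small nucleolar RNAs, which are spliced and capped like messages, were mostly low too: 9 of 12 were low and 0 high (median -1.89, and -1.43 at day 13). Most are scarce: 2 of the 12 had a mean of at least 5 CPM, and 9 of 21 listed were not tested. With a minimum mean of 5 CPM the list median was -0.08, so the low median rests on scarce genes. Snhg17 had 0.153, 0.553 and 0.747 CPM of footprints, against 9.87, 4.08 and 4.21 CPM of RNA (log2 ratio -3.56, SE 0.41), and Snhg1 stood at -1.50 (SE 0.23). Gas5, a host gene that also begins with an oligopyrimidine tract, had 19.2, 20.2 and 13.7 CPM of footprints, against 28.4, 19.6 and 17.1 CPM of RNA (log2 ratio -0.27, SE 0.13, edgeR adjusted p = 0.0867), so its footprint and RNA levels overlapped.

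RNAs that lack a poly(A) tail stood at the opposite end. Of 48 small RNA genes tested 45 were high, with all 21 snoRNAs and all 10 snRNAs among them. Genes with almost no RNA counts passed the filter through their footprint counts alone. The counts of high genes in this paragraph are therefore largely set by the filter and are no separate result. Snord2 had 54.2, 67.3 and 49.6 CPM in footprint libraries and 0 RNA counts in each RNA library, at least 1990.3-fold higher with the floor of 3 counts over the 3 RNA libraries. Snord52 was at least 1058-fold higher by the same floor. Rnu5g differed between animals, with 126, 43.0 and 32.0 CPM in footprint libraries, against 0, 0.0247 and 0 CPM in RNA libraries. Such RNAs act in the nucleus and nucleolus and are not translated, so their counts in a footprint library are not ribosome footprints. Replication-dependent histone mRNAs, which end in a stem-loop and not in poly(A), do carry ribosomes, and 23 of 29 tested were high and 0 low (median 5.85, and 4.65 at day 13, where all 19 with a value were above 0). Of the 65 histone genes listed, 36 were not tested. Hist1h1e, a linker histone, had 94.3, 96.8 and 103 CPM of footprints, against 0.840, 0.742 and 0.619 CPM of RNA (log2 ratio 7.06, SE 0.14). Hist1h4d, a core histone, had 33.3, 41.2 and 39.1 CPM of footprints, against 0.0336, 0.0494 and 0.0589 CPM of RNA. Hist1h4c had no RNA counts and 8.24, 11.6 and 16.9 CPM of footprints, at least 427-fold higher. Of 10 polyadenylated replacement histones 3 were high and 2 low, with a median of 0.32. Kits for mRNA capture generally bind poly(A) tails, so for RNAs without a tail the ratio is no measure of ribosome load. The part of the RNA kit in these ratios was not tested.

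Some of the most extreme protein-coding ratios belonged to genes with a known near-identical copy, and these are uncertain because the counting could divide reads shared between copies in unequal ways. Beyond 16-fold there were 197 protein-coding genes, 136 high and 61 low, of which 22 had whole counts in all 6 libraries, 1 high and 21 low, against 3420 of all 11959 protein-coding genes. Few of the extreme high genes thus had whole counts, which was not so on the low side. The 2 sides are not alike for this mark, since a count of few reads has fewer chances to be fractional. Ddx3y, on the Y chromosome, averaged 20.5 CPM of footprints and 0.173 CPM of RNA, while its X-linked partner Ddx3x averaged 325 CPM of footprints and 119 CPM of RNA. With both summed, the log2 ratio was 1.54 ± 0.10 (SD, n = 3), against 1.45 for Ddx3x alone. Usp9y and Uba1y showed the same form, with 11.7 and 12.3 CPM of footprints and 0.104 and 0.145 CPM of RNA. These livers thus held almost no RNA of the 3 Y-linked genes, while RNA of Xist averaged 272 CPM. The ratios of the Y-linked genes are therefore not read as ribosome load, and the source of their footprints was not tested. A2m averaged 54.2 CPM of footprints and 0.327 CPM of RNA beside its neighbour Pzp at 8414 and 7788 CPM, and their sum stood at 0.12 ± 0.12. Akr1c21 with Akr1c6 summed to 0.64 ± 0.17, Serpina3b with Serpina3k to 0.42 ± 0.23, and Ang4 with Ang to 0.24 ± 0.13. The partner is far more abundant in each of these pairs, so the sum follows the partner and does not show how the reads were divided. Among the major urinary proteins, a family of 21 related pheromone carriers, some members were far on the low side. Mup1 had 0.153, 0 and 0 CPM of footprints, against 253, 269 and 257 CPM of RNA, and Mup16 was much the same. The whole family summed to a log2 ratio of 0.01 ± 0.36 (SD, n = 3), but other members carried most of its footprints. The member with the most averaged 2034 CPM of footprints. Mup21 averaged 719 CPM of footprints and 494 CPM of RNA on the scale of the 12 libraries. This sum too does not show how reads were divided. At day 13 the family took 0.151% and 0.0881% of footprints, against 8.22% and 4.07% of RNA counts, and all 14 members were below 0 (median -9.54). Summed likewise, the large-subunit ribosomal proteins stood at -1.51 ± 0.29, the small-subunit ones at -1.63 ± 0.26 and the replication-dependent histones at 3.24 ± 0.09. The part of shared reads in any single gene's ratio was not tested.

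The ends of the range were also read off genes whose 6 counts were all whole, a choice made after the values were seen. Of 3420 such protein-coding genes, 343 (10.0%) were high and 584 (17.1%) low. The lowest with a mean of at least 5 CPM was Parp6, a mono-ADP-ribosyltransferase, with 0.458, 0 and 0.299 CPM of footprints, against 14.8, 15.3 and 14.7 CPM of RNA, a log2 ratio of -5.90 (SE 0.35, edgeR adjusted p = 8.56e-09). Zdhhc4, a palmitoyltransferase, had 0.305, 0.691 and 0.896 CPM of footprints, against 16.7, 15.3 and 16.7 CPM of RNA (log2 ratio -4.66, SE 0.26). Ryk, a Wnt receptor, had 3.05, 3.59 and 2.24 CPM of footprints, against 38.5, 42.7 and 38.6 CPM of RNA (log2 ratio -3.75, SE 0.16). These messages were present at steady RNA levels in every animal with few footprints for their RNA. Mgat4b, an enzyme of N-glycan branching, stood at -3.34 (SE 0.15), and Bag1, a cochaperone of Hsp70, at -3.14 (SE 0.13). Smo, the signal transducer of the hedgehog pathway, stood at -3.70 (SE 0.26). The others of the 12 lowest were Ogfrl1, Tmem134, Gas2l1, Lmbr1l, Fam149b and Msl1, between -3.93 and -3.08. At day 13 Parp6 stood at -4.79, Ryk at -4.12, Mgat4b at -2.66 and Bag1 at -1.34, whereas Tmem134 stood at 0.75.

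The high end of the whole-count genes was much nearer to the typical gene. Timp3, an inhibitor of matrix metalloproteinases, was the highest with 15.6, 19.6 and 18.8 CPM of footprints, against 2.49, 4.28 and 2.68 CPM of RNA (log2 ratio 2.53, SE 0.16, edgeR adjusted p = 2.06e-08). Rbm47, a cofactor of apolipoprotein B mRNA editing, had 167, 189 and 158 CPM of footprints, against 30.7, 36.2 and 31.9 CPM of RNA (log2 ratio 2.38, SE 0.08). Plekhb2 stood at 2.50 (SE 0.14), Itgav, an integrin chain, at 2.31 (SE 0.14), and Emc1, of the complex that inserts membrane proteins, at 2.24 (SE 0.14). Rnf152, Sh3bgrl2, Gprin3, Lrrc58, Cbl, Gng12 and Sptssa complete the 12 highest, all between 2.25 and 2.52. At day 13 Timp3 stood at 2.82, Rbm47 at 4.05 and Plekhb2 at 3.33, whereas Itgav stood at -0.37. The range of whole-count genes was thus lopsided, with a long tail to the low side and no gene of at least 5 CPM above the 5.76-fold of Timp3 on the high side. A count of few reads has fewer chances to be fractional, so the choice of whole counts itself favours genes with few footprints. The lopsided range is therefore not read as a property of the messages.

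The base composition at the start of the message went with the ratio. Among 6791 protein-coding genes with a mean of at least 5 CPM and a RefSeq start, the GC content of the first 50 annotated bases was cut into quartiles. From the quartile with the least GC (22% to 58%) to that with the most (72% to 94%), the median log2 ratio was 0.20, 0.15, 0.02 and -0.21. The share of genes called low was 13.1%, 11.5%, 13.2% and 23.3%, so the step lay in the most GC-rich quartile. The same steps were seen over the 1590 genes with whole counts, with medians of 0.16, 0.14, 0.01 and -0.17 and 24.1% low in the most GC-rich quartile. Spearman's rho across genes was -0.16 in the larger set and -0.14 in the smaller one, weak and given as a description. At day 13, with the other RNA kit, the medians were -0.08, 0.24, 0.07 and -0.26, and rho was -0.03: the most GC-rich quartile was again the lowest, and the order of the others differed. These 50 bases were read from the annotation and not from the start sites used in liver.

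The ratios of control liver were set beside those of the livers given Eif3m siRNA on the same day with the same kits. In Eif3m livers 1886 genes (13.3% of 14212) were high and 2694 (19%) low. The 1360 genes high in both groups were 72.1% of the high genes of Eif3m livers and 79.6% of the 1709 high genes of control livers that were tested in both. The 2174 genes low in both were 80.7% of the low genes of Eif3m livers and 80.5% of the 2700 of control livers. No gene was high in one group and low in the other (0 of 13378). List medians in Eif3m livers were -1.46 and -1.73 for the large and small ribosomal subunits, -0.78 for messages with upstream frames, 0.53 for the respiratory chain and -0.53 for P450 enzymes. Of the 67 ribosomal protein genes that were low in control livers, 59 were low in Eif3m livers too.

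The difference between the siRNA groups was tested gene by gene over the 12 libraries, and 30 of 14451 genes (0.208%) passed, 8 with a higher (0.0554%) and 22 with a lower (0.152%) ratio in Eif3m livers. Without the animal term 4 passed. At an unadjusted p below 0.05 there were 1497. Ferritin had the smallest adjusted p-values of the listed genes: the log2 ratio of Ftl1 was 0.15, -0.04 and 0.20 in Eif3m livers, against -1.07, -0.99 and -1.38 in control livers (difference 1.26, SE 0.11, edgeR adjusted p = 4.61e-06). That of Fth1 was -0.51, -0.51 and -0.39 in Eif3m livers, against -1.40, -1.15 and -1.60 in control livers (difference 0.93, SE 0.11, edgeR adjusted p = 0.000467). For both chains the 3 values of the groups do not overlap, and the low ferritin ratio of control liver was thus smaller or absent in Eif3m livers. Fth1 footprints averaged 868 CPM in Eif3m livers and 544 CPM in control livers, and its RNA 1197 CPM in Eif3m livers and 1409 CPM in control livers on the scale of the 12 libraries. The other genes with a difference are given in the closing section.

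**Figure D5:**
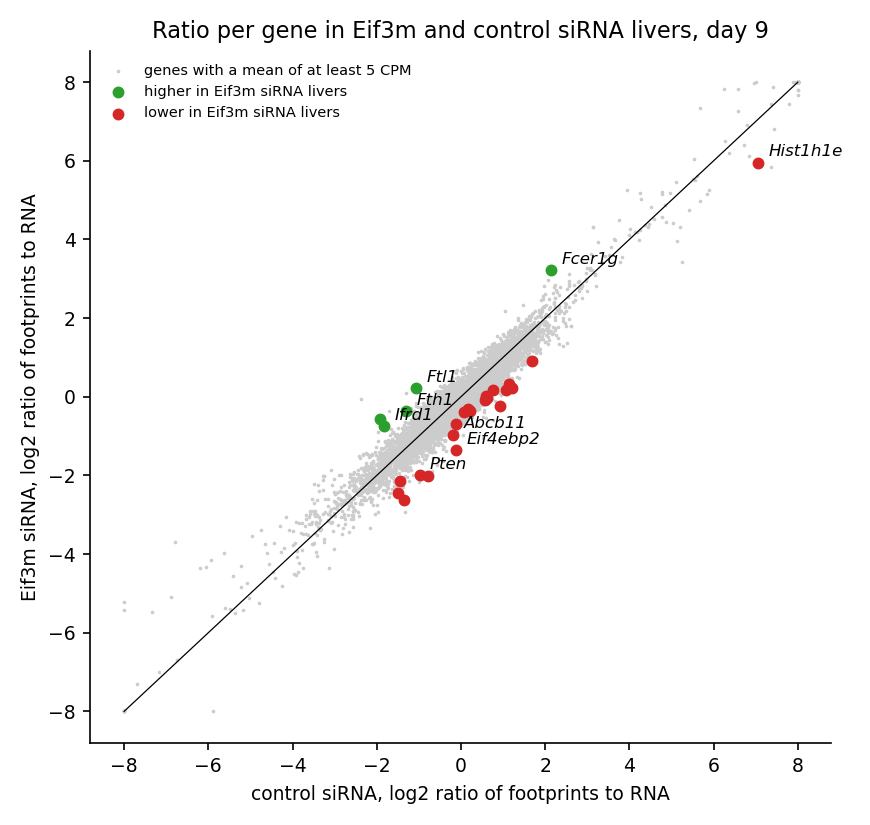
Log2 ratio of footprints to RNA per gene in Eif3m siRNA livers (y axis) and in control siRNA livers (x axis) at day 9, for genes that averaged 5 CPM or more; values beyond 8 are drawn at 8. Coloured points passed the test of the difference, green with a higher and red with a lower ratio in Eif3m livers; most genes lie along the line of equal ratio and Ftl1 and Fth1 lie above it.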

How the data were processed

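Ribosome footprints and RNA were sequenced from the same livers, and the comparison used 3 animals of the control siRNA at day 9. The authors deposited 1 table of estimated counts per gene symbol, 1 column per library. Its values are multiples of 1 over 6 and 44.3% of those read here are not whole, so they are expected counts and were rounded for the tests. Bowtie, Bowtie2 and cutadapt are named in the submitters' processing notes, with no role; no source used here gives the genome build or how reads were counted. The table does not say how footprints divide between coding sequence and untranslated regions, and start sequences come from RefSeq's gene and promoter tables, with no whole genome or protein sequences used.

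Footprint over RNA was tested with edgeR 4.0.16 (R 4.3.3, limma 3.58.1), quasi-likelihood with robust spread, trimmed-mean scaling over the 6 libraries, animal as a block, edgeR's filter on low counts and Benjamini-Hochberg adjustment over all genes tested. Levels are CPM, counts per mega-count of the library total, and ratios per animal add 0.5 CPM. The difference between siRNA groups is an interaction term over the 12 day 9 libraries. The script was tested on simulated data. The block rests on the shared animal: deviations of footprints and RNA from their group means correlated at 0.112, 0.270 and 0.361 within an animal and at -0.264 to 0.0285 between animals, over 8954 genes. Replicate libraries differed by more than sampling noise (chi-square per gene of 7.32 or more). With 3 pairs an exact permutation test of 1 gene could not go below 0.25. Intervals and floors cover counting error only.

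Members, gene lists and tests were chosen with earlier results of these data known. The naming rule took the genes furthest from 0 among all protein-coding genes, among RNAs without a protein and in each list, the genes with the most footprints, and Eif3m. Other list members were named after their values were seen. RefSeq (GRCm38.p6) matched 12886 of the 13478 genes, 552 of them by synonym. DESeq2 1.42.0 was an alternative. A few genes that the rule names are not reported here.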

Additional observations from a re-analysis of the deposited data

Results flagged for a closer look

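The ratio of 12 genes of the lists or of the named genes differed between the siRNA groups in the interaction test over 12 libraries (edgeR quasi-likelihood, Benjamini-Hochberg), and in each the 3 animals of the groups did not overlap. Differences are log2, Eif3m livers minus control livers. Higher in Eif3m livers were Ftl1 by 1.26, Fth1 by 0.93 and Ifrd1 by 1.06. The ratio of Ifrd1 was -1.08, -0.57 and -0.90 in Eif3m livers, against -1.98, -1.44 and -1.97 in control livers (edgeR adjusted p = 0.0499), while its RNA averaged 90.0 CPM in Eif3m livers and 14.5 CPM in control livers.

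Lower in Eif3m livers were 9 genes. Eif4ebp2, a repressor of the cap-binding protein, differed by -1.25, with -1.31, -1.49 and -1.43 in Eif3m livers, against 0.29, -0.48 and -0.38 in control livers (edgeR adjusted p = 0.0120). Abcb11, the bile salt export pump, differed by -0.80, with -1.18, -1.10 and -0.92 in Eif3m livers, against -0.14, -0.38 and -0.23 in control livers (edgeR adjusted p = 0.00147). Hist1h1e differed by -1.12, with 5.60, 5.23 and 5.68 in Eif3m livers, against 6.13, 6.25 and 6.52 in control livers (edgeR adjusted p = 0.0432). The others were 4 secreted proteins and 2 transporters: Fgg at -0.46, C9 at -0.58, Saa4 at -0.66, Mup21 at -0.65, Slco1b2 at -0.61 and Abcc2 at -0.61. Without the animal block Ftl1 and Eif4ebp2 kept the call among the 12. Ftl1, Fth1, Eif4ebp2 and Abcb11 kept it with each control animal left out in turn.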

How the results depend on the processing

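Against 1719 high and 2734 low genes, a mean of at least 5 CPM gave 959 and 1563 (of 8961 tested), a test against the 2-fold minimum itself gave 1044 and 1679, a fold minimum of 4 gave 487 and 1014, and only genes with whole counts gave 425 and 676 (of 3688); fewer genes are tested or a stricter rule applies in each. The other settings stayed within 1.5 times: DESeq2 gave 1719 and 2409, and limma 1489 and 2393. Without the replicate block there were 1707 and 2704. Leaving out each replicate gave 1717 to 1774 high and 2620 to 2696 low. With no filter beyond 1 count the median moved by -0.33. No called gene changed sign under any of these settings (0). The count of 30 genes that differ between siRNA groups was 4 with no replicate block, 21 with library totals, 189 with no filter and 11 to 17 without 1 control replicate (17 without replicate 1, 11 without replicate 2, 13 without replicate 3); the cause was not tested. Some list medians turned sign. With whole counts only, 5 of them rest on 1 gene each: 0.49 for the small ribosomal subunit, -0.51 for sinusoidal endothelial markers, -1.88 for iron genes, 1.02 for polyamine genes and -1.33 for liver transcription factors; other initiation factors, with 4 genes, stood at 0.26. With library totals the medians were -0.00454 for iron genes, -0.013 for coagulation and complement, -0.14 for liver transcription factors and -0.11 for chaperones. Major urinary proteins stood at -1.06 with a mean of at least 5 CPM, and snoRNA host genes at 0.18 (1 gene) with proteins only. With a mean of at least 5 CPM the snoRNA host genes kept their sign but stood at -0.08, against -1.89. Other initiation factors, at -0.01, stood at 0.0195 with DESeq2 or its size factors, 0.0134 over 12 libraries and -0.0017 to 0.0060 without 1 replicate. The whole-counts and proteins-only settings were chosen after seeing the data. Splitting by protein length was not run.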
